A study of Mus musculus with 6 samples.

Results

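Matricellular proteins are secreted into the extracellular matrix but act mainly on cells and on matrix assembly rather than as its scaffold. Many of them are scarce in the resting adult heart and are induced where tissue is injured, inflamed or fibrotic, as it is in dystrophic hearts. The group examined here holds periostin, tenascin C, osteopontin, SPARC, the 5 thrombospondins (Thbs1 to Thbs4 and Comp, which is also called thrombospondin 5) and Cilp. Members were taken as transcript clusters whose platform annotation gave exactly 1 of the 10 listed symbols. Of the 10 genes 9 were found among the 30142 genes tested, each with 1 cluster. Spp1, which encodes osteopontin, was not named in the annotation used and has no value here.

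All 6 mice were male, on a C57BL/10 background, lacked dystrophin (mdx) and had a single working utrophin allele (utrn+/-), a genotype called Het by the submitters. The loss of dystrophin and of 1 utrophin copy was thus shared by both groups, and no mouse with normal dystrophin was part of the comparison. The 3 finerenone mice received chow with 100 ppm of finerenone, a non-steroidal antagonist of the mineralocorticoid receptor, from 4 weeks of age; the 3 untreated mice received the same chow without drug, and all ventricles were collected at 20 weeks. Each ventricle was measured on 1 Affymetrix array, and values are log2 signals, so a difference of 1 is a doubling.

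The arrays correlated between 0.989 and 0.994 with each other over all transcript clusters. Untreated replicate 1 had the lowest mean correlation with the others (0.990, against 0.992 to 0.993), so its effect on each member is given. The ventricular markers Myh6 and Tnnt2 lay above at least 99.87% of the negative control probe sets on every array, whereas 7 fast skeletal muscle markers reached at most 81.7% of them on any array. In bulk tissue, fewer cells of a type and less RNA per cell cannot be told apart.

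The upstream sequences of 3 members are shown because Thbs4 and Postn had the widest differences between the groups and Sparc held the matches to a steroid receptor half-site. Each is the 250 bases before a transcription start listed by RefSeq on GRCm38.p6, 5′ to 3′ on the strand of the gene, and capitals mark the motif matches described after them. Thbs4 lies on the minus strand (chr13:92794819-92795068), Postn on the plus strand (chr3:54360857-54361106, the downstream one of its 2 listed starts) and Sparc on the minus strand (chr11:55420081-55420330).
Thbs4: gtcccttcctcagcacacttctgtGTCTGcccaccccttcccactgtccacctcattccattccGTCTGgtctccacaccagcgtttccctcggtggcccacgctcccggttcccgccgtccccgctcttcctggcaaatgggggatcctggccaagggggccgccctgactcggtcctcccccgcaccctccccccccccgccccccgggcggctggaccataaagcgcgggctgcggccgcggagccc
Postn: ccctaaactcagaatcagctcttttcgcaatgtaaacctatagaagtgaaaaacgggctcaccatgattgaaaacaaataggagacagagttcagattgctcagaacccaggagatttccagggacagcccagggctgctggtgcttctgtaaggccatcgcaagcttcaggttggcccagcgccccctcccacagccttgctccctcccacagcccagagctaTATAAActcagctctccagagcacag
Sparc: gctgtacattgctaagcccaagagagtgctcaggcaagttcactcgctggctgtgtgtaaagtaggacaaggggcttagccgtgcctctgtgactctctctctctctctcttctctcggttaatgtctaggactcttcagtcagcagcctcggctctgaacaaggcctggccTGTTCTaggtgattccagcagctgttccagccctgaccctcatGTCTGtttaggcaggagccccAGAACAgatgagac

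Motifs were searched on both strands, and none of the searched letters overlapped another motif in these windows. The TATA box (TATAAA), which positions the transcription machinery, occurred once in the Postn window, starting 26 bases before the start site, and was absent from the window of the upstream Postn start; 12.4% of 32851 such windows genome-wide held it. The SMAD-binding letters (CAGAC), recognised by mediators of TGF-beta signalling, occurred at 2 places in the Thbs4 window, 1 in the Sparc window and 1 in the upstream Postn window, which is not printed, against 42.2% of windows genome-wide with at least 1. The half-site bound by mineralocorticoid and glucocorticoid receptors (AGAACA) occurred at 2 places in the Sparc window and in none of the other 10 windows of the 8 members listed, and 16.1% of all windows held it. These matches describe letters only.

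None of the 9 members passed an adjusted p of 0.05 in limma, and neither did any other gene (0% of 30142). At an unadjusted p below 0.05, 1 member was higher in treated hearts, where 5.69% of all genes were, and 0 were lower, where 2.12% of all genes were. Means were higher in treated hearts for 8 of the 9, against 58.2% of all genes, and the median difference over the members was 0.15, against 0.03 over all genes. The groups did not overlap for 3 members, Thbs3, Thbs4 and Comp, all higher with finerenone, where 8.17% of all genes did so; 0 members were apart in the other direction, against 4.18% of all genes. With 9 genes, 1 of them under the negative control median in every array, these counts describe the members and are no test of the group.

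**Figure D1:**
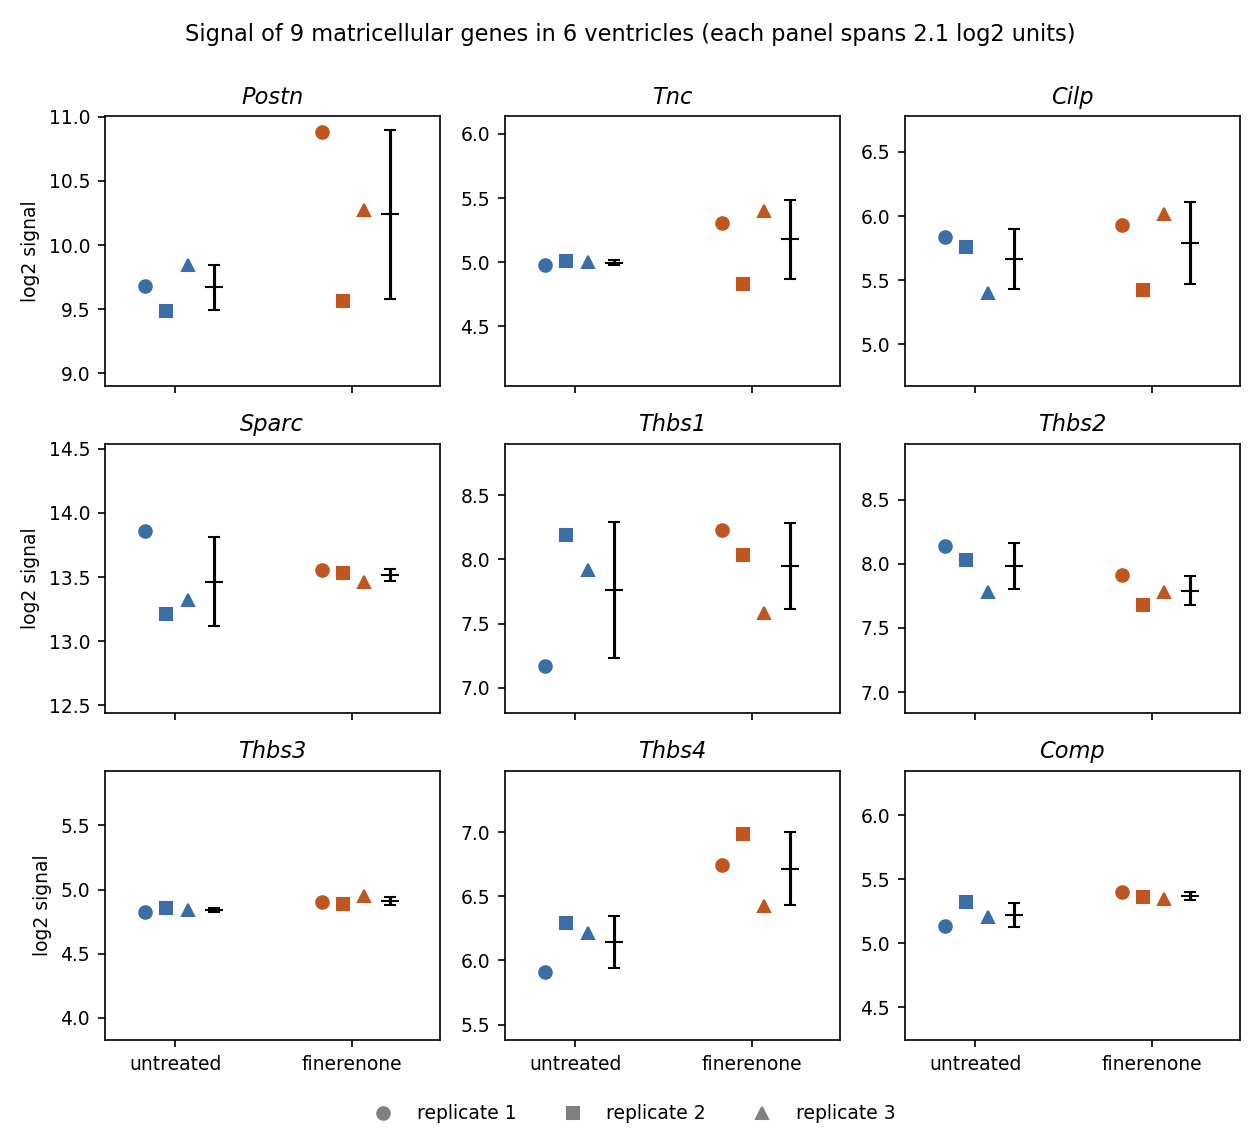
Log2 signal of the 9 measured members in each ventricle (points, 1 per array; shape gives the replicate number), with the group mean and SD (black; n = 3). Each panel spans the same 2.1 log2 units around its own centre. Thbs4 was at 6.42 to 6.99 in treated and 5.91 to 6.30 in untreated ventricles, while for Postn 1 treated array lay within the untreated range.

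Thbs4 was the member with the smallest p. It encodes thrombospondin 4, a calcium-binding matrix glycoprotein that is made by heart and skeletal muscle under stress and also acts inside the endoplasmic reticulum, where it engages Atf6. Its signal was 6.74, 6.99 and 6.42 in finerenone replicates 1 to 3 and 5.91, 6.30 and 6.22 in untreated replicates 1 to 3. Every treated array was above every untreated one, and the closest values were 6.42 and 6.30. The mean difference was 0.58 ± 0.17 (SE), a 1.49-fold higher signal with a 95% interval of 0.16 to 0.99 on the log2 scale. The unadjusted p in limma was 0.0141, rank 694 among all genes, and the adjusted p was 0.597. The difference was 0.46 without untreated replicate 1 and 0.44 without finerenone replicate 2, the lowest values when single arrays were left out.

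The level of Thbs4 was modest for this array type. On all 6 arrays it was brighter than the typical negative control, but it lay above only 62.1% to 85.4% of these controls and never above their 95th percentile. Skeletal muscle and tendon also express Thbs4. The summed linear signal of 7 fast skeletal muscle markers ran from 402 to 439 in treated and from 384 to 540 in untreated ventricles, and 5 of the 7 were lower with finerenone. For 10 tendon and cartilage markers the sum ran from 1087 to 2574 in treated and from 835 to 1553 in untreated ventricles; 6 of them were higher and none had an unadjusted p below 0.05. That sum comes mostly from Prg4, which encodes the joint lubricant lubricin and varied widely, with 9.64, 11.14 and 11.04 in treated and 10.31, 9.05 and 10.14 in untreated ventricles (difference 0.78 ± 0.50 SE). Prg4 reached 98.5% and Fmod 85.0% of the negative controls on their brightest arrays, while the tendon genes Tnmd, Scx and Mkx were at or below 56.8% on every array. The part of these tissues in the Thbs4 difference was not tested.

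Comp, the thrombospondin of cartilage and tendon that binds collagen, had the same order of groups on a smaller scale. It measured 5.40, 5.36 and 5.35 in treated and 5.14, 5.33 and 5.20 in untreated ventricles. The nearest arrays of the groups were at 5.35 and 5.33, and the difference was 0.15 ± 0.08 (SE; 95% interval -0.05 to 0.35, unadjusted p = 0.118, adjusted p = 0.714 in limma). These signals lay between 45.5% and 56.6% of the negative controls, that is near background.

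Thbs3 was near background too, with 4.90, 4.89 and 4.95 in treated and 4.82, 4.86 and 4.84 in untreated ventricles. It was under the negative control median on all 6 arrays. Its groups were apart, but the whole range over 6 arrays was 0.12 and the difference was 0.07 ± 0.07 (SE; adjusted p = 0.847 in limma). After quantile normalization, median centring or cyclic loess the groups of Thbs3 and of Comp overlapped, and Thbs4 was then the only member whose groups were apart.

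Thbs1 and Thbs2 are the thrombospondins that inhibit angiogenesis, and Thbs1 also activates latent TGF-beta. Thbs1 was at 8.23, 8.04 and 7.58 in treated and 7.17, 8.19 and 7.92 in untreated ventricles. It lay above 82.8% to 94.6% of the negative controls and never above their 95th percentile. Untreated replicate 1 stood apart as the lowest array, and the groups otherwise covered much the same range. The difference was 0.19 ± 0.29 (SE; 95% interval -0.51 to 0.90, adjusted p = 0.910 in limma), and it was -0.10 without untreated replicate 1.

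Thbs2 was the only member with a lower mean in treated hearts. It was at 7.91, 7.68 and 7.78 in treated and 8.14, 8.03 and 7.78 in untreated ventricles. These signals lay above 90.2% to 93.6% of the negative controls and never above their 95th percentile. The groups overlapped because finerenone replicate 1 was above untreated replicate 3. They were apart, with lower treated values, when either of these arrays was left out. In each of these settings 21.4% of all genes had groups apart. The difference in Thbs2 was -0.25 without finerenone replicate 1. With all arrays the difference was -0.19 ± 0.12 (SE; 95% interval -0.48 to 0.09, unadjusted p = 0.154, adjusted p = 0.750 in limma), and it was -0.29 without untreated replicate 3 and -0.12 without untreated replicate 1. Across the 6 arrays Thbs2 ran against Thbs4 (Pearson r = -0.71), whereas Comp ran with it (r = 0.85); each is a description over 6 arrays that share the treatment contrast.

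**Figure D2:**
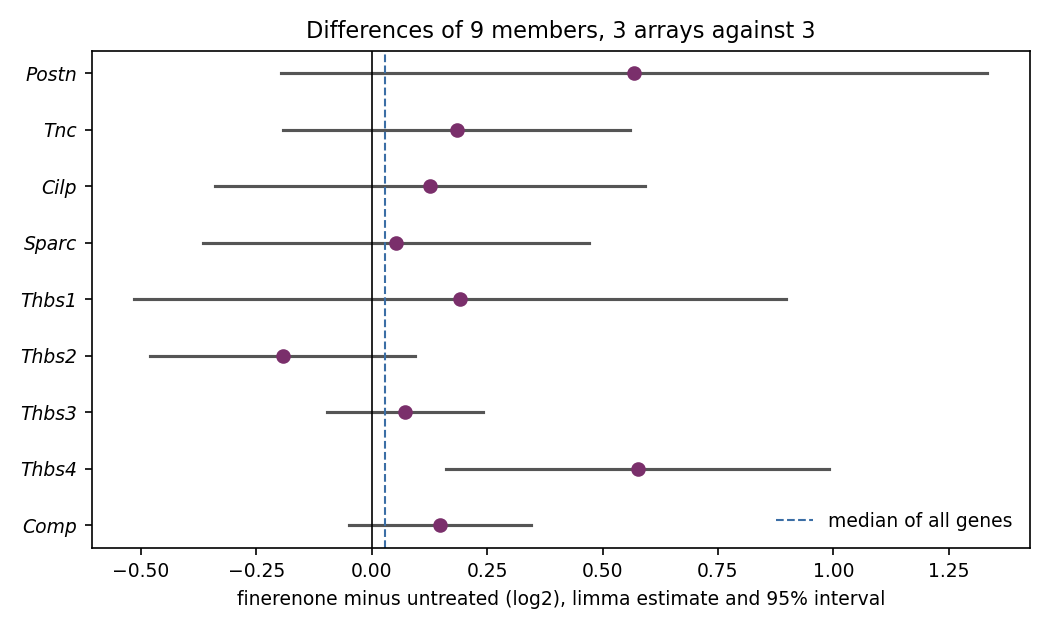
Difference of each member (finerenone minus untreated, log2; points) with its 95% interval from limma (lines; 3 arrays against 3). The dashed line is the median of all genes, 0.03. The interval of Thbs4, 0.16 to 0.99, is the only one of the 9 that leaves out 0.

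Periostin is made by activated fibroblasts, binds integrins and promotes collagen cross-linking, and its gene Postn is a standard marker of the fibroblast response to injury. Its signal was 10.88, 9.57 and 10.27 in treated and 9.68, 9.49 and 9.84 in untreated ventricles. Postn was thus high in finerenone replicates 1 and 3, while finerenone replicate 2 lay within the untreated range. The SD was 0.66 in treated and 0.18 in untreated ventricles, and the 1.48-fold higher mean (log2 difference 0.57 ± 0.32 SE) had a 95% interval from -0.20 to 1.33 (unadjusted p = 0.120, adjusted p = 0.714 in limma). Single arrays decided the size: the difference was 0.25 without finerenone replicate 1 and 0.91 without finerenone replicate 2. On every array Postn was well above background, brighter than 97.2% to 98.4% of the negative controls.

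Tenascin C, a large glycoprotein that loosens cell adhesion at wound edges, gave 5.31, 4.83 and 5.40 in treated and 4.97, 5.01 and 5.001 in untreated ventricles. Here too finerenone replicates 1 and 3 were the highest arrays and finerenone replicate 2 was the lowest. The difference of 0.18 ± 0.16 (SE; adjusted p = 0.821 in limma) became 0.36 without finerenone replicate 2 and 0.07 without finerenone replicate 3. Tnc was above 42.0% to 54.2% of the negative controls and thus near background.

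Cilp, the cartilage intermediate layer protein, is secreted by cardiac fibroblasts and antagonises TGF-beta. It was at 5.93, 5.42 and 6.02 in treated and 5.84, 5.76 and 5.40 in untreated ventricles. Finerenone replicate 2 and untreated replicate 3 were both low, so the groups covered nearly the same range. Cilp was above only 53.35% to 67.33% of the negative controls and never above their 95th percentile. The difference was 0.13 ± 0.19 (SE; 95% interval -0.34 to 0.59, adjusted p = 0.910 in limma), and it was -0.0076 without untreated replicate 3. With finerenone replicate 2 left out, the groups were apart for Postn, Tnc and Cilp and also for Thbs3, Thbs4 and Comp, that is for 6 members in all, and 3 members (Postn, Tnc and Thbs4) then had an unadjusted p below 0.05 in limma; their adjusted p was 0.870. With 2 arrays against 3 such separation is more common: in that setting 12.6% of all genes were apart and higher with finerenone, and 5.61% had an unadjusted p below 0.05.

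SPARC, a collagen chaperone also known as osteonectin, is known for its part in collagen deposition in the heart. Its signal was 13.56, 13.53 and 13.46 in treated and 13.86, 13.21 and 13.32 in untreated ventricles. The treated arrays lay close together (SD 0.05) inside the wider untreated range (SD 0.35), in which untreated replicate 1 was the highest of all arrays. The difference was 0.05 ± 0.17 (SE; 95% interval -0.37 to 0.47, adjusted p = 0.968 in limma). It was 0.25 without untreated replicate 1 and -0.074 without untreated replicate 2, and its sign turned with quantile normalization (-0.070) and with cyclic loess (-0.032).

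**Figure D3:**
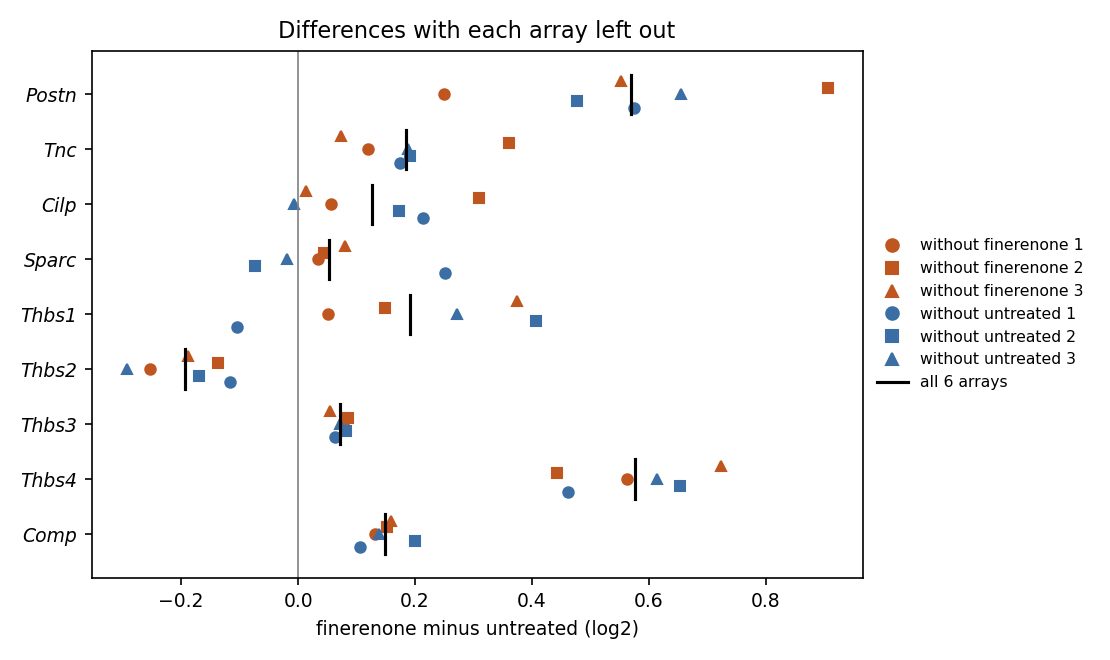
Difference of each member (finerenone minus untreated, log2) with each of the 6 arrays left out in turn (points; colour and shape give the array) and with all 6 (black bars). Postn ran from 0.25 to 0.91 and Thbs4 from 0.44 to 0.72, while Cilp, Sparc and Thbs1 crossed 0.

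Without untreated replicate 1 the difference in Postn was 0.57, in Tnc 0.17, in Cilp 0.21, in Comp 0.11 and in Thbs3 0.064. Cilp changed by the largest share of its own value among these 5.

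Fibroblast markers were set beside Postn, Tnc and Cilp. Of 10 activated fibroblast markers 9 were higher in treated hearts, against 58.2% of all genes. Their median difference was 0.04, against 0.03 over all genes. Fap, Meox1 and Ltbp2 were higher by 0.17 ± 0.11, 0.11 ± 0.19 and 0.04 ± 0.07 (SE). Fn1, Cthrc1 and Acta2 were higher by only 0.007, 0.02 and 0.02. Of the list 1 gene, the collagen cross-linking enzyme Lox, was higher at an unadjusted p below 0.05 in limma, as 5.69% of all genes were. Lox averaged 7.17 ± 0.11 in treated and 6.89 ± 0.13 in untreated ventricles (SD, n = 3 each). The summed signal of the list ran from 8494 to 12553 in treated and from 7995 to 13007 in untreated ventricles. For 9 resting fibroblast markers the sum ran from 274453 to 323455 in treated and from 219175 to 317683 in untreated ventricles. The activated sum comes mostly from Acta2, which smooth muscle also expresses and which differed by 0.02 ± 0.24 (SE). Finerenone replicate 1, the array with the highest Postn, had the highest sum of resting markers among the 6 arrays, while its mean log2 signal over the activated markers (7.03) lay within the range of the untreated arrays (6.90 to 7.16). Cthrc1, Ltbp2 and Col12a1, the dimmest of the activated markers, were at or below 43.6% of the negative controls on every array. The other activated markers reached from 77.1% (Col8a1) to 99.0% (Acta2) of them on their brightest arrays. The part of fibroblasts in the Postn difference was not tested.

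Of 29 other matricellular genes measured, 19 had higher and 10 lower means in treated hearts, where 58.2% of all genes were higher. Their median difference was 0.02, against 0.03 over all genes. Of the 29, 1 was higher at an unadjusted p below 0.05 in limma, as 5.69% of all genes were. That gene was Tgfbi, which encodes a TGF-beta-induced integrin ligand of the same fasciclin family as periostin. It was at 9.40, 9.36 and 10.01 in treated and 8.66, 9.19 and 8.79 in untreated ventricles. All treated arrays were above all untreated ones, and the difference was 0.71 ± 0.22 (SE; unadjusted p = 0.0163, adjusted p = 0.597 in limma). Left out one at a time, the arrays gave 0.50 (without finerenone replicate 3) to 0.86. Fbln5, an elastic fibre fibulin, differed by -0.33 ± 0.18 (SE) and by -0.16 without untreated replicate 1, while Ccn6 and Dmp1 were at or below 23.8% of the negative controls.

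Macrophages express Tgfbi, and in injured hearts also Spp1. Of 10 macrophage markers 9 were higher in treated hearts, against 58.2% of all genes. The median difference of the 10 was 0.28, against 0.03 over all genes. Of the 10, 2 were higher at an unadjusted p below 0.05 in limma, where 5.69% of all genes were. These were Fcgr1 at 6.69 ± 0.10 against 6.08 ± 0.41 and Lyz2 at 16.11 ± 0.48 against 15.36 ± 0.45 (SD, n = 3 each). The summed signal of the 10 macrophage markers, which Lyz2 dominates, ran from 64703 to 113236 in treated and from 40892 to 68349 in untreated ventricles. All 7 measured genes listed for osteopontin-producing macrophages were higher, against 58.2% of all genes, with a median difference of 0.16. Cd63, a lysosomal tetraspanin, differed by 0.35 ± 0.12 (SE). It was the only 1 of the 7 that was higher at an unadjusted p below 0.05 in limma, as 5.69% of all genes were. Gpnmb differed by 0.16 ± 0.14, Trem2 by 0.10 ± 0.13 and Atp6v0d2 by 0.18 ± 0.14 (SE). Of that list Trem2 and Atp6v0d2 were at or below 48.5% of the negative controls. The part of these cells in the Tgfbi difference was not tested.

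Vascular markers were set beside Thbs1 and Thbs2, the angiogenesis inhibitors, and beside Sparc, which vessels also express. All 6 measured endothelial markers had lower means in treated hearts, with a median difference of -0.39, and Kdr, the VEGF receptor 2, differed by -0.86 ± 0.27 (SE; unadjusted p = 0.0161, adjusted p = 0.597 in limma) and by -0.59 without untreated replicate 1. Over all genes 58.2% had higher means in treated hearts. Without untreated replicate 1 Pecam1 turned to 0.06, while Kdr, Cdh5, Tie1, Tek and Vwf stayed lower. The summed endothelial signal ran from 26841 to 34369 in treated and from 35060 to 71770 in untreated ventricles, with untreated replicate 1 the highest. All 7 smooth muscle and pericyte markers were lower as well, with a median of -0.19, and Pdgfrb differed by -0.55 ± 0.16 (SE; unadjusted p = 0.0105, adjusted p = 0.597 in limma). Without untreated replicate 1 Rgs5 (0.16), Cnn1 (0.12) and Cspg4 (0.02) turned higher, while Pdgfrb, Tagln, Notch3 and Myh11 stayed lower. The sum of the 7 markers ran from 65950 to 70953 in treated and from 53145 to 95654 in untreated ventricles. It comes mostly from Rgs5, which differed by -0.05 ± 0.21 (SE) with all arrays. Untreated replicate 1 was also the highest array for Sparc and Thbs2, and the part of vessel cells in these members' values was not tested.

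Receptors through which matricellular proteins reach cells were near balance. Of 20 receptor genes 9 had higher and 11 lower means, where 58.2% of all genes were higher. Their median difference was -0.02, and none had an unadjusted p below 0.05 in limma. Cd36, a fatty acid transporter that is also a thrombospondin 1 receptor, was at 19.25 ± 0.01 in treated and 19.44 ± 0.16 in untreated ventricles (SD, n = 3 each). Both are close to the highest signal on these arrays, 19.93, and whether so bright a signal limits the difference was not tested. Cd47, another thrombospondin 1 receptor, differed by 0.22 ± 0.14 (SE), and Itga9, a tenascin C and osteopontin receptor, by 0.16 ± 0.10. Itgb6, which activates TGF-beta, differed by -0.66 ± 0.41 (SE), by -0.22 without finerenone replicate 2 and by -1.02 without finerenone replicate 1. The integrin chains Itgav, Itgb3 and Itgb5 that bind periostin differed by -0.11 ± 0.12, -0.13 ± 0.15 and -0.13 ± 0.14 (SE).

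Matrix and TGF-beta partners showed 12 of 18 genes higher and 6 lower, where 58.2% of all genes were higher. Their median difference was 0.03, as it was over all genes. Lox had the only unadjusted p below 0.05 (0.0344, adjusted p = 0.612 in limma), with a difference of 0.28 ± 0.10 (SE). Tgfb1, the cytokine that induces Postn and Tnc in fibroblasts, was lower on all 3 treated arrays (7.73, 7.71 and 7.31) than on the untreated ones (7.79, 7.91 and 7.94), a difference of -0.29 ± 0.13 (SE; unadjusted p = 0.0647, adjusted p = 0.654), which was -0.16 without finerenone replicate 3. Adamts12, a protease that cleaves Comp, differed by -0.24 ± 0.12 and Tgfb3 by 0.16 ± 0.10, the latter 0.085 without untreated replicate 3.

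Inside cells, thrombospondin 4 is known to activate the Atf6 arm of the endoplasmic reticulum stress response, which raises chaperones and folding enzymes. The 12 measured genes listed belong to the whole stress response, not to the Atf6 arm alone, and their link to Thbs4 was not tested. Of the 12, 8 had higher and 4 lower means, where 58.2% of all genes were higher. Their median difference was 0.21, and 4 had an unadjusted p below 0.05 in limma, all higher, where 5.69% of all genes did so. The protein disulfide isomerase Pdia6 was at 11.47, 11.41 and 11.43 in treated and 11.22, 11.20 and 11.14 in untreated ventricles. Calr, the calcium-binding chaperone calreticulin, was at 13.08, 12.96 and 13.09 against 12.88, 12.74 and 12.74. Both genes were higher on all treated arrays, by 0.25 ± 0.07 and 0.26 ± 0.08 (SE; adjusted p = 0.597 for each in limma).

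Creld2, an Atf6 target, differed by 0.32 ± 0.13 (SE) with groups that were apart, and Herpud1, which serves the degradation of misfolded proteins, by 0.74 ± 0.28 with groups that overlapped. Without untreated replicate 2 the difference in Creld2 was 0.20, and without finerenone replicate 3 that in Herpud1 was 0.49. Atf4 was just outside the threshold, at 0.17 ± 0.07 (unadjusted p = 0.05001) with groups apart. The central chaperone Hspa5 (BiP) had a lower treated mean, with 12.73 ± 0.11 in treated and 13.02 ± 0.24 in untreated ventricles (SD, n = 3 each; difference -0.29 ± 0.14 SE, unadjusted p = 0.0798), and Atf6 itself differed by -0.17 ± 0.16. Hspa5 was at -0.16 without untreated replicate 1 and Atf6 at -0.049 without finerenone replicate 2. Quantile normalization took the count of 4 genes to 0 and cyclic loess to 1, the replicate number as a block to 3 (without Creld2), and it was 1 to 3 with single arrays left out (1 without finerenone replicate 3 or untreated replicate 2, and 2 without finerenone replicate 1 or 2).

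**Figure D4:**
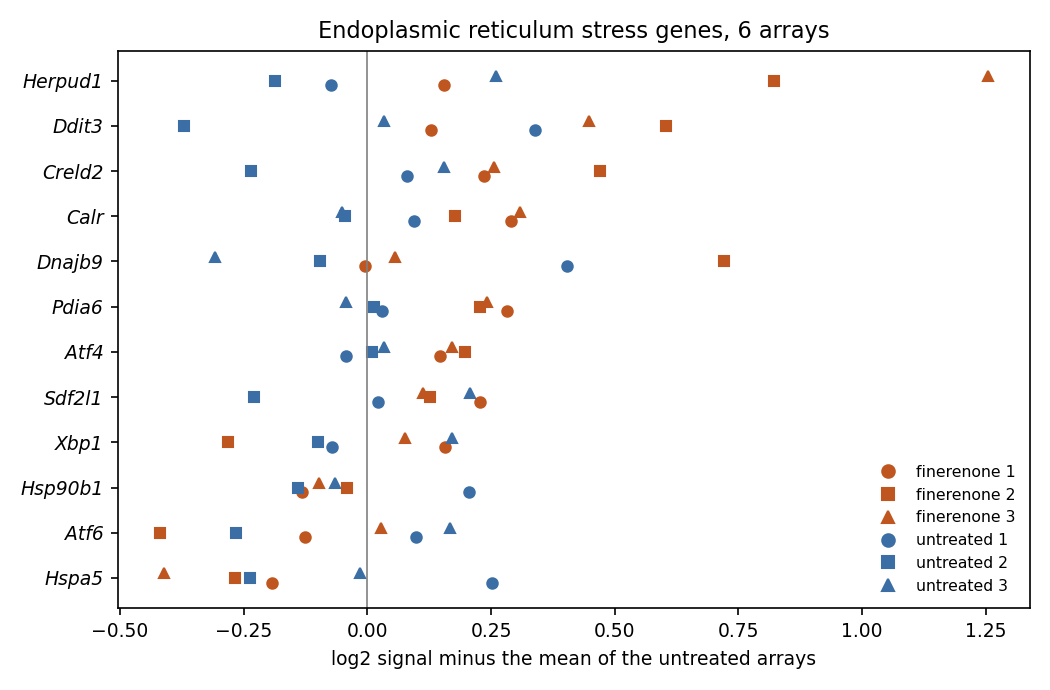
Log2 signal of 12 endoplasmic reticulum stress genes relative to the mean of the untreated arrays (points, 1 per array; orange treated, blue untreated; shape gives the replicate number). Pdia6, Calr, Creld2 and Atf4 have all treated arrays above all untreated ones, while Hspa5, Atf6, Hsp90b1 and Xbp1 have lower treated means.

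Profiles of other genes over the 6 arrays were compared with those of Postn and Thbs4 among genes with a mean signal of at least 8. The 5 most like Thbs4 were Ufm1, a ubiquitin-like modifier of endoplasmic reticulum proteins (Pearson r = 0.995, Spearman rho = 1), Gm11531, Vapa, a membrane protein of that organelle, Exosc1 and Hmox2, with r from 0.991 to 0.995 over 6363 genes. An r of at least 0.9 with Thbs4 was reached by 458 genes (7.20%), with Comp by 504 (7.92%) and with Postn by 37 (0.582%). The 5 most like Postn were Hspa13, Fgd4, H2ac10, Me1 and Trmt5 (r from 0.962 to 0.980 over 6362 genes), of which H2ac10, a histone gene, differed by 0.60 ± 0.22 (SE) between the groups and Me1 by 0.04 ± 0.08. With 6 arrays, which share the treatment contrast, many genes reach such an r.

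Finerenone replicates 1 and 3 were the highest arrays for Postn, Tnc, Cilp and Thbs3. Postn and Tnc followed each other with r = 0.83 over the 6 arrays, and Tnc and Cilp with r = 0.80. Thbs4 and Comp did so with r = 0.85, with untreated replicate 1 lowest for both. Correlations of Postn, Tnc or Cilp with Thbs4 or Comp were weaker, from -0.20 to 0.47. Untreated replicate 1 was the lowest array for 4 of the 9 members (Thbs1, Thbs3, Thbs4 and Comp) and the highest for 2 (Sparc and Thbs2). Finerenone replicate 1 was the highest for 3 members (Postn, Thbs1 and Comp), finerenone replicate 3 for another 3 (Tnc, Thbs3 and Cilp), and neither was the lowest for any.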

How the data were processed

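Ventricular RNA of 6 mice was measured on 6 Affymetrix arrays, and the labels call the 3 mice of each group biological replicates. The deposited values are log2 signals. The submitters' processing notes name RMA as the authors' method and list Transcriptome Analysis Console and Affymetrix Expression Console as programs, with no versions in the sources used here. RMA fits all arrays together, so levels depend on the set of arrays. Of 65956 transcript clusters 30604 carried 1 gene symbol, updated by Entrez identifier to RefSeq GRCm38.p6, and gave 30142 genes. The cluster with the highest mean was used for each of 355 genes with several; 2146 clusters with several symbols were left out. No filter on dim genes was applied, and negative controls are the 5222 probe sets so named in the table.

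Groups were compared with limma 3.58.1 in R 4.3.3 (lmFit, eBayes, two-sided), with Benjamini-Hochberg adjustment over all genes and a threshold of 0.05; tables and plots used Python 3.11.15, pandas 2.3.3 and matplotlib 3.10.9. The fit was tested on simulated data. The number of arrays limits precision. An exact permutation test of 3 arrays against 3 cannot go below p = 0.1, the value for Thbs3, Thbs4 and Comp. All members are named. Of the matricellular, receptor, matrix and endoplasmic reticulum lists the 4 genes with the smallest p were named. Of the cell type lists only some genes were named, not always those with the smallest p. None was named of the resting fibroblast and skeletal muscle lists. An atrial list is not described elsewhere: 4 of its 5 markers were higher, with a median difference of 0.19. Named genes beyond those with the smallest p were chosen after their values were seen. Members and lists were chosen with earlier results of these data known. Same-numbered arrays of the groups did not deviate together (r from -0.15 to 0.06), so replicate numbers were not used as pairs. Promoter windows were found for 8 of 10 members.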

Additional observations from a re-analysis of the deposited data

How the results depend on the processing

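No member and no other gene passed an adjusted p of 0.05 in limma under any of the alternatives run, and with all arrays none passed 0.1. Thbs4 kept its direction under all of them and had an unadjusted p below 0.05 in each. With the replicate number as a block, its difference of 0.58 had an unadjusted p of 0.0161 in limma and that in Postn one of 0.0682. The blocked fit took the endoplasmic reticulum genes at an unadjusted p below 0.05 from 4 to 3, Creld2 being lost. The count of members at that p stayed at 1. The counts of members higher or with groups apart could not move, because the block changes neither the signals nor the mean differences. The numbers do not pair the mice. Between single arrays left out, the count of members at an unadjusted p below 0.05 ran from 1 to 3 and the count with groups apart from 3 to 6, the highest without finerenone replicate 2. Over all genes these settings gave 5.61% to 9.25% at that p and 20.8% to 25.7% with groups apart, against 7.81% and 12.4% with all arrays. Sparc joined Thbs4 below 0.05 without untreated replicate 1, and Thbs2 did without untreated replicate 3. Quantile normalization, median centring and cyclic loess each left 1 member with groups apart. So did a mean signal of at least 6, a filter that removes Thbs3 and Comp. That filter keeps 5 members, 4 of them higher, and 11356 genes, of which 60.8% were higher. At an unadjusted p below 0.05 in limma were 1305 of these genes (11.5%), against 2353 of 30142 (7.81%) without the filter. Sparc turned to -0.070 with quantile normalization and -0.032 with cyclic loess, and with arrays left out it ran from -0.074 to 0.25, Thbs1 from -0.10 to 0.41 and Cilp from -0.0076 to 0.31. The endoplasmic reticulum genes at an unadjusted p below 0.05 numbered 0 after quantile normalization, 1 after cyclic loess, 2 with array weights and 1 to 3 with arrays left out. Following this count, and that of members with higher means, over the alternatives was not planned. Apart from the filter, which removes genes, the causes were not tested. Signals near the negative controls limit Tnc, Thbs3 and Comp, and Cilp was above only 53.35% to 67.33% of these controls. Of the members, only Postn and Sparc were above the 95th percentile of the controls, both on all 6 arrays.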
